A study of Mus musculus with 32 samples.

Results

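The change in the injury response of the P10 mouse forebrain between 12 h and 24 h after hypoxia-ischemia (HI) was measured on 6 of the 32 two-color microarrays of the series. NMRI pups at postnatal day 10 had a permanent ligature of the right carotid under isoflurane, went back to the mother, and were then kept for 40 min at 8% O2. The injured hemisphere was collected 12 h later (P10+12h) or 24 h later (P10+24h) and labeled with Cy5, and the matching hemisphere of untreated (naive) littermates collected at the same time was labeled with Cy3. Each array compared 1 HI pool with 1 naive pool of 6 animals each, so the spread between the 3 arrays of a time point is that between pools and not between single pups. The ligature and the hypoxia were always given together and no sham-operated group was used, so the effect of either alone, or of anesthesia, cannot be told apart from that of HI. The comparison was the log2 ratio of HI over naive at P10+24h minus that at P10+12h, within the pairs a, b and c of arrays that lie on the same slide. Of 39429 probes, 21075 had a mean processed signal of 100 or more in 1 channel at either time, and they stood for 17664 genes, each taken from its brightest probe. A difference above 0 means that the ratio was higher at 24 h, and 0.585 on this log2 scale is a 1.5-fold difference.

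After neonatal HI, cells of the ischemic territory first switch on immediate early genes and stress genes, and glial and endothelial cells release cytokines and chemokines. Microglia, the resident macrophages of the brain, and astrocytes then become reactive, blood-borne myeloid cells may enter, and dividing cells appear around the injury, while neurons are lost over hours to days. Metallothioneins, small cysteine-rich proteins that bind zinc and copper, belong to the stress genes, and thymidine kinase 1 (Tk1) supplies dTTP for DNA synthesis and is made in dividing cells.

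The hemispheres were checked for the cell types of the forebrain. Snap25 (synaptic vesicle fusion), Rbfox3 (neuronal nuclei), Mbp (myelin), Slc1a2 (astrocytic glutamate uptake) and Aqp4 (astrocytic water channel) were well above background in both channels of all 6 arrays. Since RNA came from whole hemispheres, fewer cells of a type and less RNA per cell cannot be told apart in any value below.

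Both arrays of pair a stood apart from the rest. On the P10+12h array of pair a, 84.9% of naive spots and 91.9% of HI spots were well above background, whereas on the other 5 arrays these shares ran from 63.8% to 70.2% and from 67.7% to 79.0%. On the P10+24h array of pair a, the ratios had an SD of 0.94 across genes, against 0.53 in pair b and 0.44 in pair c. The difference between times had therefore an SD across genes of 1.13 in pair a, 0.36 in pair b and 0.52 in pair c, and pair a weighs most in any mean. Across genes the differences correlated at r = 0.64 between pairs a and b, 0.37 between a and c and 0.27 between b and c, and genes are not independent replicates. Each pair is therefore given by itself below. Arrays of P10+12h held position 3 of their slides and arrays of P10+24h position 4, so that time and position cannot be told apart.

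At an adjusted p under 0.05 and a difference over 1.5-fold (limma over the 12 P10 arrays, Benjamini-Hochberg over all probes tested), 2 genes differed between 24 h and 12 h. Tk1 was the 1 gene that rose, and metallothionein 2 (Mt2) the 1 gene that fell, each 0.00566% of the 17664 genes tested. Tk1 was repressed at 12 h and at the naive level at 24 h. Mt2 was strongly induced at 12 h and less so at 24 h. Both genes left the naive level further from 3 h to 12 h on each slide and moved back after 12 h.

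The log2 ratio of Tk1 was -1.05, -0.78 and -0.85 on the arrays of pairs a, b and c at 12 h, and -0.15, 0.15 and 0.15 at 24 h. The 2 times did not overlap, and the rise was close to the same in the 3 pairs, at 0.90, 0.93 and 0.99. The mean difference was 0.94 ± 0.08 (SE, limma adjusted p = 0.0393). The processed HI signal of Tk1 was 197, 99.5 and 113 at 12 h and 282, 235 and 259 at 24 h, while the naive signal was 407, 171 and 203 at 12 h and 313, 212 and 234 at 24 h. The higher ratio thus came with a higher HI signal in each pair, and the naive signal was lower in pair a and higher in pairs b and c. Signals are given as deposited, without scaling between arrays. The repression was visible from 3 h, with ratios of -0.41, -0.29 and -0.25, and the ratios at 6 h were -0.77, -0.44 and -0.57.

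The log2 ratio of Mt2 was 3.89, 3.00 and 2.84 at 12 h, and 2.62, 1.85 and 1.55 at 24 h. HI pools held 9.47-fold the naive level at 12 h and 4.01-fold at 24 h as the mean of the log2 ratios. Within each pair the ratio was lower at 24 h, by -1.27, -1.15 and -1.29, and the mean difference was -1.24 ± 0.12 (SE, limma adjusted p = 0.0393). The HI signal of Mt2 was 102000, 40300 and 42500 at 12 h and 44600, 22400 and 15800 at 24 h. The naive signal lay between 5050 and 7280 over all 6 arrays. After scaling each channel, the HI signal of Mt2 changed by -0.88 and the naive signal by 0.35, so that both had a part in the lower ratio. Metallothionein 1 (Mt1), the neighbor of Mt2, went from 3.06, 2.42 and 2.14 at 12 h to 2.46, 1.83 and 1.45 at 24 h. Its difference of -0.63 ± 0.10 was over 1.5-fold in the 3 pairs and did not pass the test (adjusted p = 0.0829). As close paralogs, Mt1 and Mt2 may share labeled RNA between their probes, and the values of either are uncertain to that degree.

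Both calls rest on the slide as a block: without it 0 genes were called (adjusted p = 0.0681 for Tk1 and 0.104 for Mt2), and with the 6 arrays alone 0 as well. Neither call was kept when a pair was left out, although the differences were nearly the same. The adjusted p was 0.169, 0.0771 and 0.138 for Tk1 and 0.169, 0.0715 and 0.138 for Mt2 when pair a, b or c was left out, at differences of 0.91 to 0.96 and of -1.28 to -1.21. With another background correction (normexp, with an offset that pulls dim probes together), the difference of Tk1 was 0.48 (adjusted p = 0.138), and that of Mt2 was -1.20 (adjusted p = 0.0366).

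The promoters of these genes are shown for the 250 bases before the start of the gene (RefSeq, GRCm38.p6), since Mt2 and Mt1 start 6471 bases apart on chromosome 8 and were lower together, and Tk1 was the 1 gene that rose. Capitals mark the AP-1 motif TGANTCA, which the Fos, Jun and Atf3 family of factors is known to bind.
Mt2, chr8:94172368-94172617, plus strand: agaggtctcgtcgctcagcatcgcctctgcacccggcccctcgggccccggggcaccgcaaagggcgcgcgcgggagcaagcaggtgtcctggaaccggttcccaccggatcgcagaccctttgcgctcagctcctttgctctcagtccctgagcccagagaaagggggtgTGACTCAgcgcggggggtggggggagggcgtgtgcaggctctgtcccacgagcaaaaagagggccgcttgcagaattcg
Mt1, chr8:94178839-94179088, plus strand: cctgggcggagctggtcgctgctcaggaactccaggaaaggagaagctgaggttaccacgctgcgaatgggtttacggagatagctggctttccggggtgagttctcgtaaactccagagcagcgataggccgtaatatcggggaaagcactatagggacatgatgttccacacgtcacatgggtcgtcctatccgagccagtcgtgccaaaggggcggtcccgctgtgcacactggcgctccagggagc
Tk1, chr11:117826015-117826264, minus strand: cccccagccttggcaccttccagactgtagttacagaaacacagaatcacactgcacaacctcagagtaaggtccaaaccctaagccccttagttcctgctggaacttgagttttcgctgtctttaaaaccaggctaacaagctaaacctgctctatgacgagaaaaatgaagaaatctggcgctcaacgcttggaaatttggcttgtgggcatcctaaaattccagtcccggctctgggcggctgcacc
Of the 6 motifs searched on both strands, the promoter of Mt2 held 1 AP-1 motif, and no match lay in the 250 bases of Mt1 or of Tk1. The motifs were AP-1, the cAMP response element CRE (TGACGTCA), the interferon response element ISRE, kappa-B, the heat shock element and the E-box CACGTG. AP-1 occurred in 7.81% of all 32851 promoters of 300 bases.

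**Figure D1:**
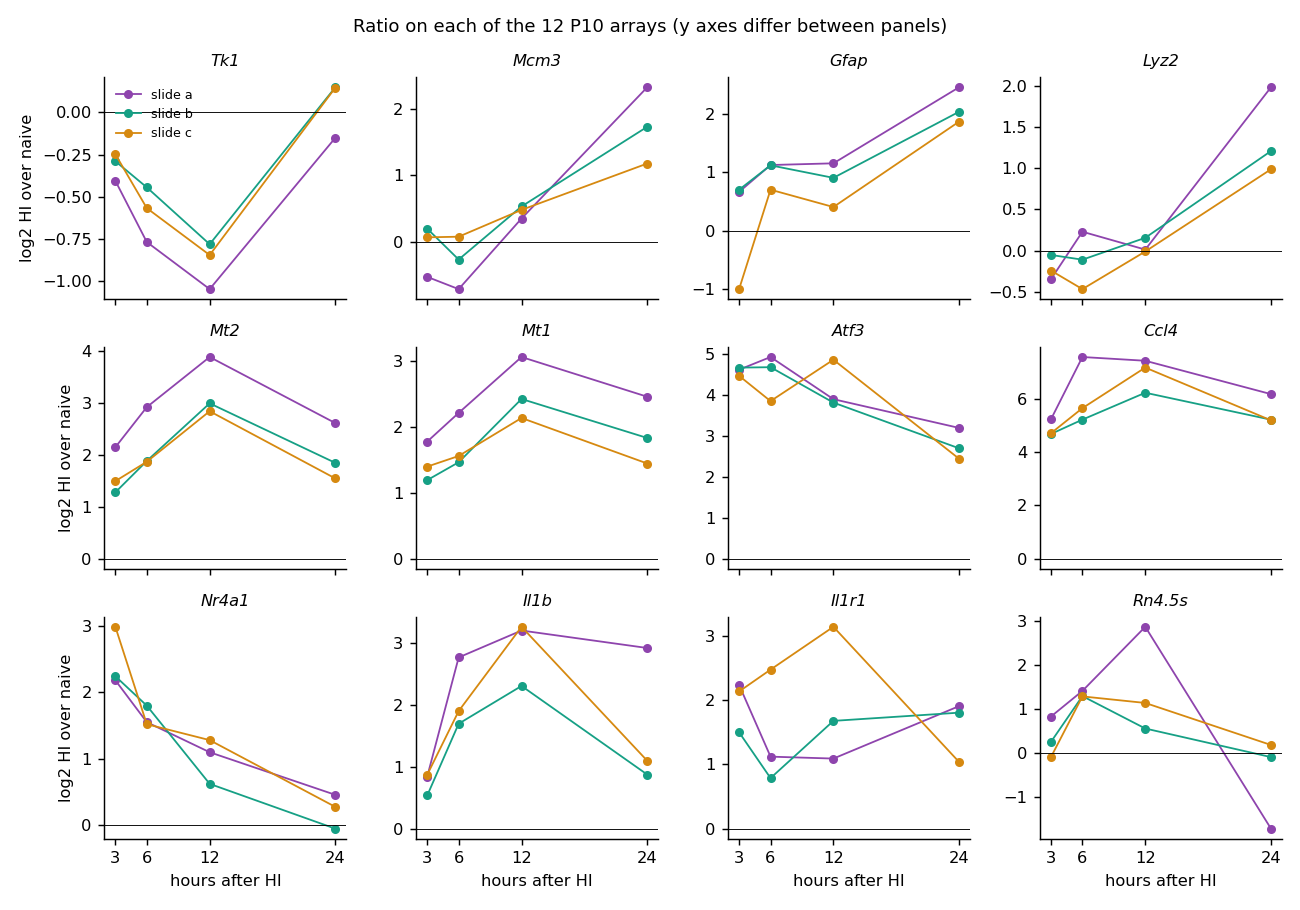
Log2 ratio of HI over naive signal on each of the 12 P10 arrays (y axis) against hours after HI (x axis), with 1 line for each slide (a, b, c) and the naive level at 0. Tk1 reached its lowest ratio and Mt2 and Mt1 their highest at 12 h on all 3 slides, and the 24 h values lay on the naive side of the 12 h values in each pair.

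Below the threshold on the adjusted p, many genes moved in like manner in the 3 pairs. Over 1.5-fold higher in all 3 pairs were 107 genes (0.606% of those tested), and over 1.5-fold lower in all 3 pairs were 395 genes (2.24%). This description was chosen after the data were seen and carries no test. At an unadjusted p under 0.05 and over 1.5-fold, 602 genes were higher (3.41%) and 1929 lower (10.9%). Among the 13084 genes named by the reference, 514 were higher and 881 lower. Lower genes were thus a smaller share of named genes, which make up the lists below, than the 10.9% of all genes. When all 24 HI arrays were fitted together, with the P5 arrays lending their spread, 541 genes were called higher (3.06%) and 1586 lower (8.98%), Tk1 and Mt2 among them. The share of higher genes among those moving in all 3 pairs was 21.3% with the deposited processed signals and 1.23% (2 higher and 160 lower) after normexp and loess, which pull the ratios of dim probes toward 0. Dim probes made up much of the higher group, whose median signal was 193.9, against 637 over all genes tested. Of its 107 genes, 22 reached the signal minimum in HI pools at 24 h alone, and of the 395 lower genes 27 did so in HI pools at 12 h alone. Among all genes tested, 73 and 338 entered in these 2 ways. The filter favored a difference in that direction for such genes. Entry through naive pools at 1 time alone, which also favors 1 direction, was not counted.

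Most of the lower group shared 1 array profile. Rn4.5s, a small noncoding RNA gene of high copy number with a signal of 435000 in HI pools at 12 h, had ratios of 2.87, 0.55 and 1.13 at 12 h and -1.73, -0.10 and 0.18 at 24 h. Of the 395 lower genes, 340 (86.1%) had ratios that correlated with those of Rn4.5s at r over 0.8 across the 12 P10 arrays, against 2108 (11.9%) of all genes tested and 0 of the 107 higher genes. The lower group was chosen for a fall from 12 h to 24 h, which Rn4.5s also shows, and the 12 arrays include those of both times. The selection thus favors a high share in the lower group and a low one in the higher group. These shares are a description and test nothing. The 340 genes had a median difference of -3.34 in pair a, -0.71 in pair b and -0.79 in pair c. This group held 132 named and 208 unnamed genes, and included genes of quite different roles, such as Siglech (resting microglia), Cplx2 (synaptic release) and Ermn (myelin). The part of the array signal in this profile was not tested, and members of this group are left out of the accounts of single genes below unless stated. The 55 other lower genes had medians of -1.16, -0.78 and -1.03 in pairs a, b and c, and 31 of them were named.

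**Figure D2:**
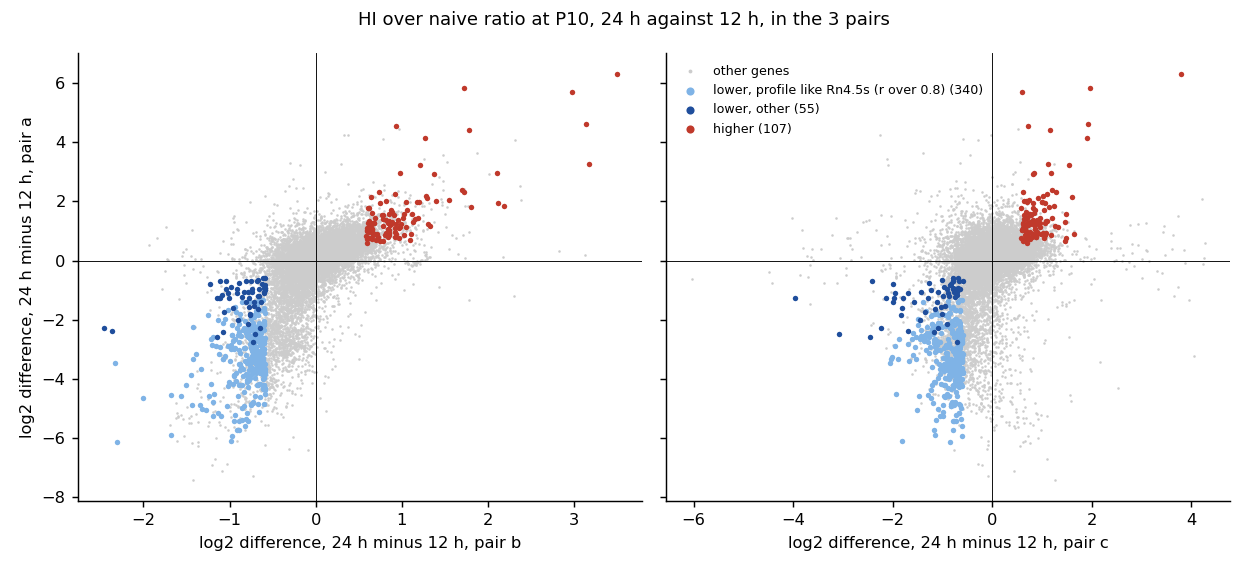
Log2 difference of the ratio, 24 h minus 12 h, of each gene in pair a (y axis) against pair b (left) and pair c (right). Red points mark the 107 genes over 1.5-fold higher in all 3 pairs, dark blue points the 55 lower genes and light blue points the 340 lower genes with a profile like that of Rn4.5s, whose values in pair a (median -3.34) lie far below those in pairs b and c.

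Which of the effects present at 12 h were smaller and which larger at 24 h was described next, from the effect of HI at each time (limma, each time against 0, adjusted p under 0.05 and over 1.5-fold). HI induced 827 genes (4.68%) and repressed 693 genes (3.92%) at 12 h, and induced 1553 (8.79%) and repressed 1696 (9.6%) at 24 h. Since genes picked for a large effect at 12 h tend to lie closer to 0 at any other time, the counts below carry no test. Of the 693 genes repressed at 12 h, 651 were closer to or above the naive level at 24 h and 108 were also called at 24 h. Their median log2 ratio was -0.70 at 12 h and -0.38 at 24 h, with median differences of 0.31, 0.16 and 0.55 in the 3 pairs. Inductions behaved otherwise: 404 of 827 were larger and 423 smaller at 24 h, 555 were also called at 24 h, and the median ratio was 0.86 at 12 h and 0.81 at 24 h. The pairs disagreed on inductions, with median differences of 0.36, 0.06 and -0.52 in pairs a, b and c. Of the 70 genes induced over 4-fold at 12 h, 36 were larger and 34 smaller at 24 h.

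Immediate early genes and stress-linked transcription factors were among the inductions that were smaller at 24 h. Of 19 immediate early genes tested, 0 were called by limma, 5 were lower and 0 higher at an unadjusted p under 0.05 and over 1.5-fold (10.9% and 3.41% of all genes were), and the median difference was -0.20 against 0.06 over all genes. By pair the median was 0.11, -0.13 and -0.88, and it was 0.0066 without pair c and -0.72 without pair a. Atf3, a stress-induced factor of the AP-1 family, had ratios of 3.89, 3.81 and 4.85 at 12 h and 3.19, 2.69 and 2.44 at 24 h, and the 2 times did not overlap. Its difference was -1.41 (adjusted p = 0.0941), the HI signal was 1720, 792 and 1550 at 12 h and 750, 271 and 162 at 24 h, and HI pools still held 6.84-fold the naive level. Nr4a1, an orphan nuclear receptor induced by activity and stress, went from a mean of 1.00 to 0.23, with differences of -0.64, -0.67 and -1.003 (adjusted p = 0.103). The ratio of Nr4a1 was highest at 3 h, at 2.18, 2.24 and 2.99, so 24 h continued a descent that had begun before 12 h. Fos, a partner of Jun in AP-1, was at 2.92 at 12 h and 1.85 at 24 h, with differences of -0.41, -0.87 and -1.93 (adjusted p = 0.125). Jun (-0.49) and Dusp6 (0.18), which are bright members of the list, had pairs of both signs. Klf4, a zinc-finger factor, went from 0.75 to -0.65, but its pairs differed widely, at -2.75, -0.73 and -0.71.

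Of 20 cytokines, chemokines and their receptors tested, 0 were called, and 6 were lower and 0 higher at an unadjusted p (10.9% and 3.41% of all genes). Their median ratio was 3.05 at 12 h and 2.10 at 24 h, and the median difference was -0.33, with 0.39 in pair a, -0.12 in pair b and -0.98 in pair c, and it turned to 0.14 without pair c. Ccl4, a chemokine that draws monocytes and lymphocytes, was the 1 member over 1.5-fold lower in all 3 pairs. Its ratios were 7.41, 6.22 and 7.16 at 12 h and 6.16, 5.21 and 5.18 at 24 h (difference -1.41, adjusted p = 0.0897). The ratios of the 2 times did not overlap. The HI signal of Ccl4 was 6950, 2840 and 4410 at 12 h and 3750, 1500 and 850 at 24 h, lower at 24 h in each pair. Ccl9 was at 3.18 and 2.11, with differences of -0.52, -0.77 and -1.93 (adjusted p = 0.0897). The monocyte attractants Ccl2 (4.18 at 12 h and 3.92 at 24 h) and Ccl12 (3.44 and 3.65) differed by less between the times, and their pairs had both signs. Il1b, the proinflammatory cytokine interleukin 1 beta, had ratios of 3.20, 2.30 and 3.26 at 12 h and 2.91, 0.87 and 1.095 at 24 h. Its difference of -1.29 did not pass the test (adjusted p = 0.101), with -0.28 in pair a against -1.43 in pair b and -2.16 in pair c. For Il1r1, the receptor of Il1b, the pairs disagreed in sign, at 0.82, 0.13 and -2.11, and the mean was -0.39 (adjusted p = 0.654). Its naive signal was well above background on 1 of 3 arrays at 12 h and 2 of 3 at 24 h, which limits these ratios.

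Smaller inductions at 24 h were also seen for Ctla2a and Ctla2b, neighbors that encode inhibitors of cysteine proteases and were named after their values were seen. Ctla2a went from a mean of 2.45 to 1.09 and Ctla2b from 1.94 to 0.44, with differences of -1.25, -1.13 and -2.12 for Ctla2b (adjusted p = 0.0762). The HI signal of Ctla2b had a mean of 10330 at 12 h and 3270 at 24 h, and the naive signal one of 2613 and 2253. The sequences of both genes are close, and their probes may share labeled RNA. A promoter of each (1 of 2 for Ctla2a) is shown because both genes hold an AP-1 motif (capitals) at a like place.
Ctla2a, chr13:60936626-60936875, minus strand: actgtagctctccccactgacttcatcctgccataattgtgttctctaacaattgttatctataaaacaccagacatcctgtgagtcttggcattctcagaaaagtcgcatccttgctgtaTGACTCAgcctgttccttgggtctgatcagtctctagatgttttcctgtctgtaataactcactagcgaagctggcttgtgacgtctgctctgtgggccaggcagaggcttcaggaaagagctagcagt
Ctla2b, chr13:60897448-60897697, minus strand: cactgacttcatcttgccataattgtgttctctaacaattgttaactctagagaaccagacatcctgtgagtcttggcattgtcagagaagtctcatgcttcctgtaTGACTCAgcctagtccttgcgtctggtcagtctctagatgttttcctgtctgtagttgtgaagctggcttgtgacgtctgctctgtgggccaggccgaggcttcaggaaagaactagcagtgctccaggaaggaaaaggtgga
AP-1 occurred in 4 of 31 promoters (12.9%) of the lower genes outside the Rn4.5s profile, in 6 of 79 (7.59%) of the higher genes and in 5.31% of those of all tested genes, and these shares are a description with no test. The 4 promoters were those of Mt2 and Ctla2b and 2 overlapping ones of Ctla2a that hold the same site, so they are not 4 separate sites.

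Part of the reactive astrocyte list had larger ratios at 24 h than at 12 h. Of 21 tested, 0 were called, and 7 were higher and 0 lower at an unadjusted p (3.41% and 10.9% of all genes). Over 1.5-fold higher in all 3 pairs were 4 (0.606% of all genes were), namely Gfap, S1pr3, Tgm1 and Ptx3. Of these, Tgm1 reached the signal minimum in HI pools at 24 h alone. The median difference was 0.28, with 0.78, 0.49 and -0.14 by pair. Gfap, the intermediate filament of astrocytes, had ratios of 1.15, 0.90 and 0.41 at 12 h and 2.45, 2.03 and 1.86 at 24 h. The times did not overlap, the difference was 1.29 (adjusted p = 0.0769), and the 3 probes of Gfap were all higher, by 1.29, 0.91 and 1.16. The HI signal of Gfap was 4090, 1460 and 1710 at 12 h and 4810, 2900 and 2020 at 24 h, and the naive signal was 1840, 780 and 1290 at 12 h and 880, 709 and 555 at 24 h, so that both channels moved apart. S1pr3, a receptor of sphingosine-1-phosphate, went from 1.24 to 2.18, with 1.22, 0.86 and 0.72 by pair (adjusted p = 0.0762). Vim, a second intermediate filament, went from 2.06 to 2.85, with 1.43, 0.82 and 0.13 by pair. Aqp4, the astrocytic water channel of the homeostatic list, differed by 0.73, 0.59 and 0.66 (adjusted p = 0.0762). Members of the reactive list with a lower ratio at 24 h were Hspb1 (-0.52) and B3gnt5 (-0.54, adjusted p = 0.0762), which shows that the list did not move as 1 block.

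For Tgm1, a transglutaminase, and Ptx3, a pentraxin of innate immunity, the naive signal was not well above background at 24 h, so the fold is a lower bound. Tgm1 had HI signals of 121, 12.7 and 21.2 at 12 h and 494, 149 and 116 at 24 h, and HI pools at 24 h were at least 11.3-fold above naive pools. Its naive signal was 95.8, 4.74 and 13.7 at 12 h, the first on the array of pair a that had the raised share of spots above background. Ptx3 was at least 10.4-fold above naive at 24 h, with HI signals of 285, 59.1 and 94.0 at 12 h and 452, 180 and 94.0 at 24 h. Only pairs a and b had a higher HI signal of Ptx3 at 24 h.

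Activated microglia and macrophage genes had a median difference above 0 in each pair (0.83, 0.39 and 0.12). Of 24 activated microglia and macrophage genes tested, 0 were called, and 7 were higher and 0 lower at an unadjusted p (3.41% and 10.9% of all genes). Gpnmb, Cst7, Msr1, Fcgr2b and Lyz2 were over 1.5-fold higher in all 3 pairs (0.606% of all genes were). Of these 5, the first 4 reached the signal minimum of 100 in HI pools at 24 h alone, where they are high, so their count supports nothing. The same 4 genes are among the 7 past an unadjusted p and enter the medians of the list. The count of 7 and these medians thus rest in part on the filter. Median ratios were 0.77 at 12 h and 1.42 at 24 h, and the median difference was 0.41. Lyz2, a lysozyme of macrophages and neutrophils, had ratios of 0.01, 0.16 and -0.01 at 12 h and 1.98, 1.21 and 0.99 at 24 h (difference 1.34, adjusted p = 0.0762). Its neighbor Lyz1 differed by 2.03, 1.40 and 0.68, and labeled RNA of one on the probe of the other cannot be told apart. Lyz2 was thus at the naive level at 12 h and 2.62-fold above it at 24 h. Gpnmb, a glycoprotein of phagocytes, had HI signals of 70.6, 42.3 and 41.9 at 12 h and 413, 138 and 93.6 at 24 h, and was at least 9.67-fold above naive at 24 h. The Fc receptor Fcgr2b (at least 5.06-fold), the cystatin Cst7 (at least 5.87-fold) and the scavenger receptor Msr1 (at least 3.65-fold) likewise had naive signals not well above background at 24 h. The bright members Cd63 (0.36), Ctsb (0.54) and Ctsd (0.32), all lysosomal, and Apoe (-0.01), a lipid carrier, differed by less than 1.5-fold.

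Other genes of white cells and microglia among the 107 were named after their values were seen. The C-type lectins Clec4d and Clec4e, which sense microbes and dead cells, had HI pools at least 8.84-fold and at least 4.32-fold above naive at 24 h. Both reached the signal minimum in HI pools at 24 h alone, where they are high, so their place among the 107 supports nothing. In pair c the HI signal of Clec4d was 90.7 at 12 h and 40.0 at 24 h, and its naive signal 40.4 and 4.71, so that both signals were lower at 24 h. Cd52, a surface glycoprotein of leukocytes, was measured above background throughout and differed by 1.70, 1.06 and 1.04. Inpp5d (a phosphatase of blood cells; 1.98, 1.18 and 0.99), Myo1f (a myosin of leukocytes; 2.10, 1.29 and 0.92), Slc11a1 (a metal transporter of phagosomes; 1.59, 1.02 and 0.76) and Ncf1 (a subunit of the phagocyte oxidase; 1.72, 0.88 and 0.87) were also above background in naive pools. The adjusted p of Cd52 and of these 4 genes lay between 0.0762 and 0.0941.

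Resting microglia markers lay lower than the activated genes at both times, with a median ratio of -0.09 at 12 h and -0.01 at 24 h. Of 15 tested, 4 were higher and 1 lower at an unadjusted p (3.41% and 10.9% of all genes). The median difference was 0.33, alike in the 3 pairs (0.51, 0.31 and 0.32). The purinergic receptors P2ry12 and P2ry13, which guide microglial processes, went from -1.35 to -0.93 and from -1.15 to -0.43. Aif1, which encodes the microglial protein Iba1, went from -0.21 to 0.50 with 1.12, 0.46 and 0.56 by pair (adjusted p = 0.0762). Siglech was the 1 lower member and has the profile of Rn4.5s, at -4.203, -0.60 and -0.73. Of the bright members, Rgs10 differed by 0.19 and Csf1r by -0.07.

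Of 13 complement and acute phase genes, 3 were higher and 0 lower at an unadjusted p (3.41% and 10.9% of all genes). The median difference was 0.40 (0.75, 0.41 and -0.37 by pair), which turned to -0.05 without pair a. The complement factors C1qc (1.07 at 12 h and 1.57 at 24 h), C1qa (0.63 and 1.03) and C1qb (0.96 and 0.99) were bright, and C4b went from 0.74 to 1.59 with 1.08, 1.16 and 0.32 by pair. Of 23 interferon-stimulated genes, 5 were higher and 1 lower at an unadjusted p (3.41% and 10.9% of all genes), with a median difference of 0.40 (0.81, 0.38 and -0.18 by pair). Xaf1, a proapoptotic interferon target, differed by 1.25, 0.99 and 0.62 (adjusted p = 0.0789), and Oasl2, an oligoadenylate synthetase-like protein, was at least 9.06-fold above naive at 24 h. Oasl2 reached the signal minimum in HI pools at 24 h alone, where it is high. Isg15, B2m, Ifi27l2a and Bst2, the brightest of the list, had a lower ratio at 24 h in pair c and a higher one in pairs a and b. The ISRE occurred in 7 of 79 promoters (8.86%) of the higher genes and in 2.96% of those of tested genes. The 79 promoters belong to 70 genes, and overlapping promoters of a gene can hold the same site. Other searched motifs differed as well, such as the E-box with 2.53% in the higher genes and 9.58% in tested genes. These shares are a description with no test, and a part of interferon in the differences was not tested.

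Among cell cycle genes, part had the direction of Tk1. Of 18 tested, 0 were called, 6 were higher and 0 lower at an unadjusted p (3.41% and 10.9% of all genes), and the median difference was 0.38 (0.81, 0.26 and 0.08 by pair). The median ratio was -0.12 at 12 h and 0.23 at 24 h. The 6 Mcm genes tested, which encode the replicative helicase and were grouped after their values were seen, had a median difference of 0.62, and Mcm7 was the 1 with a negative mean (-0.10). Mcm3 went from ratios of 0.35, 0.53 and 0.48 at 12 h to 2.32, 1.73 and 1.17 at 24 h, with a difference of 1.29 (adjusted p = 0.0936). The 2 times did not overlap, and HI pools held 3.34-fold the naive level of Mcm3 at 24 h. Cdk1, the kinase that drives entry into mitosis, had ratios of -0.54, -0.12 and -0.48 at 12 h and 0.52, 0.46 and 0.39 at 24 h (adjusted p = 0.0762). Rrm2, the inducible subunit of ribonucleotide reductase, differed by 0.88, 0.46 and 0.40 (adjusted p = 0.0762), and the clamp Pcna by 0.60, 0.22 and 0.20. Ccnb1 and Cdc20, which act in mitosis, and the proliferation marker Mki67 had lower ratios at 24 h, at -0.37, -0.30 and -0.21, and none of these passed the test.

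Genes outside the lists that ranked highest by the moderated statistic, with an adjusted p of 0.0762 each, were Oca2, Hspb3, Tnfaip8l2, Zmat5, Dbndd2, Acad12, Pilra, Hpgds, Dhrs1 and Abi3. Oca2, a melanosomal transporter, went from -0.51 to 0.42 with 0.92, 0.85 and 1.02 by pair, and Hspb3, a small heat shock protein, from -0.64 to 0.21. Pilra, an inhibitory receptor of myeloid cells, was at -0.19 at 12 h and 0.89 at 24 h, and Hpgds, the hematopoietic prostaglandin D synthase, at 0.06 and 1.03. Hpgds reached the signal minimum in HI pools at 24 h alone, where it is high. Oca2 reached it in naive pools at 12 h alone, which favors a higher ratio at 24 h. Tnfaip8l2, a negative regulator of innate immunity, differed by 0.86, 0.83 and 0.87, and Abi3, an actin regulator of microglia, by 0.79, 0.84 and 0.79. These values were closely alike between pairs, as the ranking selects for. In the case of Acad12, an acyl-CoA dehydrogenase, the difference of 1.14 lay in the naive channel, which changed by -1.16, whereas the HI channel changed by -0.01.

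At the other end ranked Vmn2r10, Tsc22d3, Plaat5, Bmp3, F7, Snhg1, Tcp11, Clstn3, Olfr1368, Serpina3m and Bglap2, again at an adjusted p of 0.0762. Tsc22d3, a glucocorticoid-induced leucine zipper protein, was at 0.40, 0.49 and 0.32 at 12 h and -0.30, -0.25 and -0.34 at 24 h. The 2 times did not overlap, the difference was -0.71 in the mean and -0.71, -0.75 and -0.66 by pair, and the change lay in the HI channel (-0.76) rather than the naive channel (-0.07). With normexp and loess, Tsc22d3 was called (-0.73, adjusted p = 0.0473). Bmp3, a member of the TGF-beta family, went from 0.02 to -0.95, and F7, coagulation factor VII, from 0.21 to -1.26. Both were dim, and their differences after normexp and loess were -0.15 and -0.43. Vmn2r10, Plaat5 and Serpina3m have the profile of Rn4.5s. Bmp3 and Vmn2r10 reached the signal minimum in naive pools at 24 h alone, which favors a lower ratio at 24 h.

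Of the 55 lower genes outside that profile, 38 crossed from above to below the naive level, 10 were inductions that were smaller at 24 h and 7 were repressions that were larger. Of these, Flt1 and Smad6 were named after their values were seen. Flt1, a receptor of VEGF, went from 0.80 to -0.75, with -2.41, -1.08 and -1.16 by pair, and Smad6, an inhibitor of BMP signals, from 0.77 to -0.70 with -1.62, -0.96 and -1.81. Over the 14 endothelial genes tested, 0 were higher and 1 lower at an unadjusted p (3.41% and 10.9% of all genes). The median was -0.18 with 0.09, -0.01 and -0.67 by pair. Bright members of that list were Kdr (-0.16), the main VEGF receptor, and Cldn5 (-0.48), a tight junction protein whose value rests on pair c (-1.28).

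The lists of neurons and myelin follow, to be read beside the 3.41% of all genes that were higher and the 10.9% that were lower at an unadjusted p. Glutamate and GABA receptor subunits (35 tested) had a median of 0.15, above 0 in each pair (0.22, 0.08 and 0.15), and 1 was higher and 2 lower at an unadjusted p. Their median ratio was -0.17 at 12 h and -0.07 at 24 h. Gabrb2, a beta subunit of GABA receptors, was at -0.55 at 12 h and -0.16 at 24 h. Neuron subtype markers (21 tested) had a median of 0.16 and 0 past the unadjusted limits in either direction. Among synaptic vesicle and postsynaptic density genes (34 tested, median 0.04), 1 was higher and 4 lower at an unadjusted p. Snap25 stood at -1.03 with -2.35, -0.27 and -0.46 by pair, and Syn2 at -0.10. Oligodendrocyte and myelin genes (21 tested) had a median of 0.09, with 2 higher (Aspa, which breaks down N-acetylaspartate, at 0.74 and Fa2h, which hydroxylates fatty acids of myelin lipids, at 0.70) and 1 lower (Ermn) at an unadjusted p.

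Stress lists other than the metallothioneins were near the median of all genes. Of 15 heat shock proteins, 0 were higher and 0 lower at an unadjusted p (3.41% and 10.9% of all genes were), and the bright Hspa8 differed by 0.09 and Hsp90ab1 by -0.05. The 16 hypoxia-inducible genes had a median of 0.04, with Aldoa at 0.02, Ldha at 0.19 and Bnip3 at 0.05. The 19 genes of the unfolded protein and integrated stress responses had a median of 0.02, with Atf4, the factor that drives the latter, at -0.38 and Hspa5 at 0.20. The 20 p53 targets and apoptosis genes had a median of -0.04, and Bax, which drives mitochondrial apoptosis, differed by 0.07. The list of oxidative stress genes (15 tested, median 0.09) holds Mt1 and Mt2, while the ferritins Fth1 (0.09) and Ftl1 (-0.02) differed little. Cholesterol genes (24 tested) had a median of 0.07, with Hmgcs1 at -0.48 and Msmo1 at 0.17, and clock genes (11 tested) one of 0.03, with Dbp at 0.48 in the mean and 0.36, 0.52 and 0.56 by pair.

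Markers of other cells moved between pools as well. Erythroid markers (8 tested) had a median of -0.53, with -1.06, 0.00 and -0.65 by pair, and all 8 genes had a negative mean difference. The alpha-globin Hba-a2 was at 1.01 at 12 h and 0.27 at 24 h. Of 5 neutrophil markers tested, of 14 in the list, 0 were higher and 2 lower at an unadjusted p (3.41% and 10.9% of all genes). Their median was -0.36, with -0.61, -0.08 and -0.57 by pair. Csf3r differed by -3.98, -0.57 and -0.96, by pair much like the medians of the Rn4.5s group (-3.34, -0.71 and -0.79). Its signal of 196700 was far above that of the other members, and whether it came from neutrophils was not tested. Elane differed by -0.61, -0.16 and -0.30, and its mean of -0.36 is under 1.5-fold, so it is not among the 2 lower. S100a8 differed by 2.65, 0.67 and -0.55 and S100a9 by 1.84, 0.52 and -1.05, so the pairs of S100a8 and S100a9 had both signs. Among T and B lymphocyte markers (5 tested), 1 was higher and 0 lower at an unadjusted p (3.41% and 10.9% of all genes). Their median was -0.30, with -0.32, -0.01 and -0.08 by pair. Cd79b, a part of the B cell receptor, differed by 1.80, 1.80 and 1.15 (adjusted p = 0.0762), with scaled changes of 0.81 in the HI and -0.78 in the naive channel. Ms4a1, also of B cells, went the other way, by -3.58, -0.36 and -0.01, and Cd3e was at -0.30 and Cd4 at -0.30. Choroid plexus markers (9 tested, median 0.01), with Ttr at 0.08, and pituitary markers (3 tested, median -0.04) differed little. Sex-linked genes had differences of both signs in the pairs, with Eif2s3y at -0.76, -1.51 and 1.38, and Eif2s3y is a Y-linked gene. The part of blood, or of the mix of sexes in the pools, in the differences above was not tested.

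**Figure D3:**
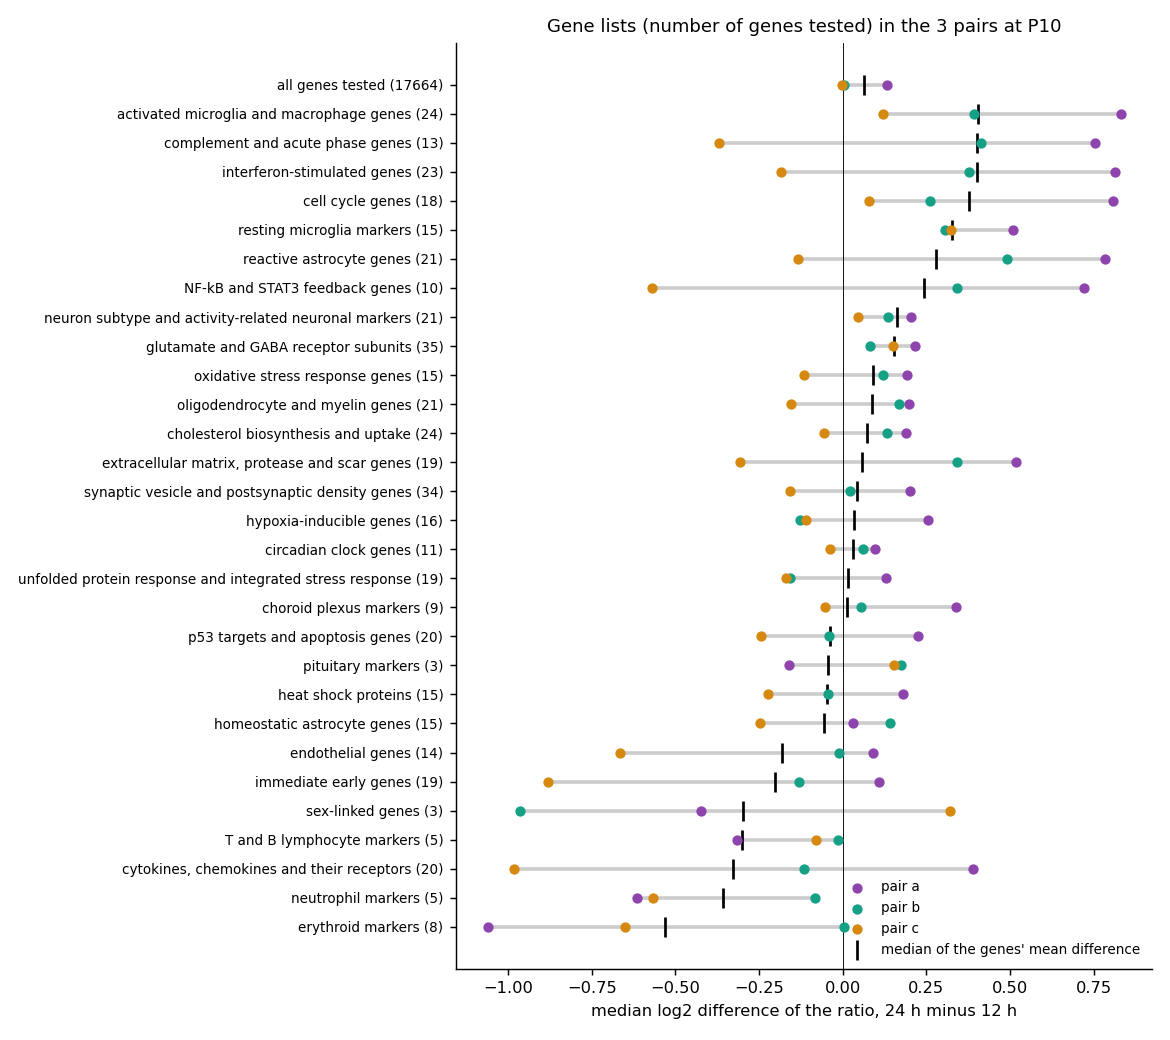
Median log2 difference of the ratio, 24 h minus 12 h (x axis), of each gene list (y axis, number of genes tested in brackets) in pairs a, b and c (points) and of the mean over pairs (black bar), with all 17664 genes on top. The lists of activated microglia, resting microglia, cell cycle genes, glutamate and GABA receptor subunits and neuron subtype markers lie above 0 in each pair. The activated list holds 4 genes that reached the signal minimum in HI pools at 24 h alone. For cytokines and immediate early genes, pair c lies far below pair a.

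Where the change lay was read from each channel by itself, after scaling to its 75th percentile. No gene passed the test (limma) in the HI or in the naive channel (0% each), while 303 HI signals were higher and 1708 lower at an unadjusted p and over 1.5-fold, and 112 naive signals were higher and 186 lower. Of the 107 higher genes, the HI signal was higher in 102, with a median change of 0.81, and the naive signal was lower in 85, with a median of -0.28. Of the 55 lower genes outside the Rn4.5s profile, the HI signal was lower in 54, with a median of -0.90, and the naive signal was higher in 39, with a median of 0.19. In the 340 genes with that profile, the channels moved in opposite ways, with medians of -1.09 for HI and 0.55 for naive. A set chosen for a higher ratio must show a higher HI or a lower naive signal, so these medians describe where the change lay and test nothing.

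**Figure D4:**
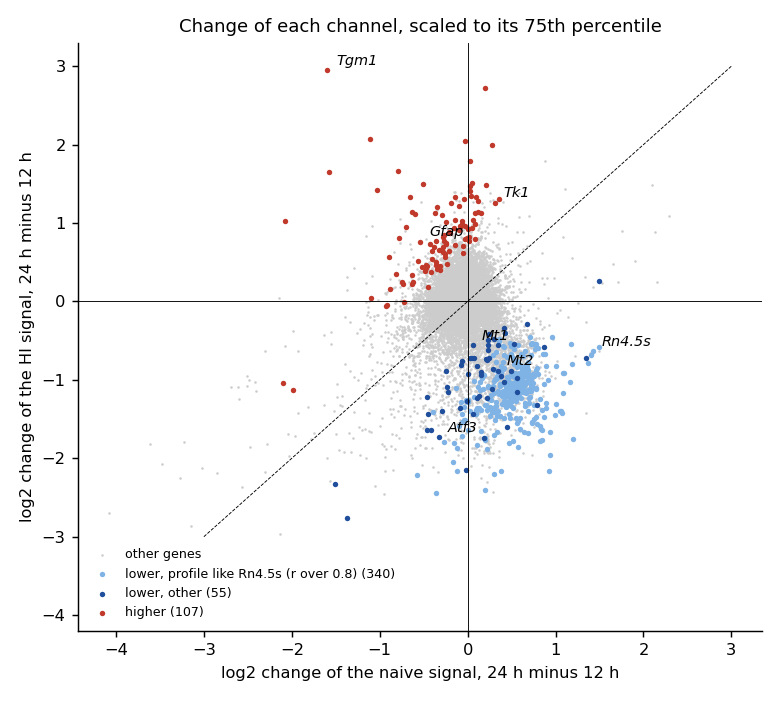
Log2 change of the HI signal (y axis) against that of the naive signal (x axis) from 12 h to 24 h for each gene, each channel scaled to its 75th percentile, with the line of equal change dashed. The 107 higher genes (red) lie mostly above 0 on the HI axis, with a median of 0.81, and the lower genes with a profile like Rn4.5s (light blue) lie to the right of 0 on the naive axis, with a median of 0.55.

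The same interval was compared with that at P5, where pups had the same treatment. Of the 107 genes higher in all 3 pairs at P10, 87 also had a positive difference at P5, with a median of 0.18, against 9097 of all 17664 genes (51.5%). Of the 395 lower genes 361 had a negative one, with a median of -0.44, and of the 55 outside the Rn4.5s profile 47, with a median of -0.31, against 8567 of all genes. Mt2 differed at P5 by -0.74, -0.18 and -0.32, and the difference between ages was -0.82 ± 0.18 (SE, limma adjusted p = 0.310). Tk1 differed at P5 by 0.30, 0.36 and 0.78, and the ages by 0.46 ± 0.18 (adjusted p = 0.399). Neither gene was shown to change otherwise at P10 than at P5. Il1b was lower at 24 h at P5 as well, by -3.52, -1.99 and -3.96, and Gfap higher, by 0.11, 1.53 and 1.80. By this test of the difference between ages, 1 of 17664 genes was called (0.00566%), namely Clstn3, and 1133 (6.41%) passed an unadjusted p under 0.05 and 1.5-fold. Clstn3, a calsyntenin of synapses, differed by -0.74, -0.42 and -0.75 at P10 and by 0.06, 0.19 and 0.27 at P5. The difference between ages was -0.81 ± 0.11 (SE, adjusted p = 0.0443), and leaving out any 1 pair other than pair b of P10 ended the call (adjusted p from 0.0803 to 0.490).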

How the data were processed

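Two-color arrays of HI (Cy5) against naive (Cy3) pools were scanned and extracted by the authors with Agilent Feature Extraction (10.5.1.1 per the submitters' processing notes). The deposited intensity values are, per the file headers, processed signals, from which background had been subtracted and the dye bias removed by Lowess on each array, with arrays not scaled to each other; raw medians of spot and background are given too. The deposited log10 values are the ratio of both processed signals, and the series table holds the same numbers. Spots flagged as outliers and control spots were left out and spots of 1 probe averaged. Precision is limited by the number of arrays (3 per time), and p-values cover the spread between pools. All arrays carry HI in Cy5, and a dye bias that is the same at both times cancels in the difference.

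Log2 ratios of processed signals of the 12 P10 arrays were fitted with limma 3.58.1 (R 4.3.3), with time as factor and slide as block, for probes with a mean signal of 100 or more in 1 channel at 12 h or 24 h and a ratio on at least 2 arrays per time. The contrast 24 h minus 12 h was moderated by empirical Bayes and adjusted by Benjamini-Hochberg over 21075 probes. Slide and replicate number coincide. The pairs share a slide per the array barcodes, and no pairing of animals is assumed. Deviations of same-numbered arrays did not go together (r = -0.549, -0.041 and -0.105 between 12 h and 24 h), which gives the block no support from these 2 times. Over the 12 P10 arrays the consensus correlation within slides was 0.157. The interaction with P5 used all 24 HI arrays.  Where naive signals were not well above background, the fold was bounded by the lowest signal well above background on each array.

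Probes were named through the RefSeq table (27436 of 39429 probes, 20838 genes), and the others kept the name of the files. Promoters are those of RefSeq on GRCm38.p6, from 250 bases before to 50 after the start. Members and gene lists were chosen with earlier results of these data known. Named genes are Tk1, Mt2 and the next of the 12 highest and 12 lowest by moderated statistic among genes of 1 sign in the 3 pairs that were above background, up to 4 bright members of a list, Il1b and Il1r1, and genes called by the interaction. Others are marked as named after their values were seen, as are the members over 1.5-fold in all 3 pairs or past an unadjusted p. A few members of the lists are not reported here by name. Alternatives were no block, a random block, 6 or 24 arrays, array weights, centering, scale normalization, normexp (offset 50) with loess, other filters, the methods' test and leaving out arrays.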

Additional observations from a re-analysis of the deposited data

Results flagged for a closer look

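Clstn3 is the 1 result whose change between 12 h and 24 h differed between ages by a test of that difference (limma, 24 HI arrays): -0.81 on the log2 scale, P10 minus P5, with P10 lower at 24 h in 3 of 3 pairs and P5 higher in 3 of 3. Its adjusted p was 0.597 without the slide as block and 0.320 after scale normalization.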

How the results depend on the processing

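Most named genes were chosen for 1 sign in the 3 pairs, and several alternatives leave a difference as it is by construction, so their direction says nothing about stability. Il1r1 turned sign in 4 settings. Its difference was 0.0813 with array weights, 0.0914 to 0.473 without arrays of pair c, and down to -0.99 without pair a. Without the replicate block, 0 genes were called over the 12 arrays, and Tk1 and Mt2 had an adjusted p of 0.0681 and 0.104. With the 6 arrays of the comparison alone and the block, 0 were called, and with the slide as random block 7. A fit of 24 arrays called 2127 genes with the block and 1704 without it. Array weights (0.196 for the P10+24h array of pair a) called 580, scale normalization 989 and centering on the array median 1 (Mt2). With no signal filter 0 were called, with probes well above background in 1 channel on every array of 1 time 0, and with those well above background in both channels on all 6 arrays 3 (2 higher, 1 lower). Leaving out 1 pair gave 0 to 5 calls, and 1 array 0 to 34. The methods' t-test against 0, whose use with 3 values is not exact, gave 268 genes unadjusted (173 higher, 95 lower) and 0 after Benjamini-Hochberg, and the cause of these spreads in counts was not tested.

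The count of genes at an unadjusted p (2531) was 1260 after normexp and loess and 1276 (without pair a) to 3189 (without pair c) with 1 pair left out. The count over 1.5-fold in all 3 pairs (502) was 162 (2 higher, 160 lower) after normexp and loess, 212 with a signal minimum of 500, 250 for genes named by the reference, 162 (107 higher, 55 lower) without the Rn4.5s profile, and 589, 1686 and 1253 without pair a, b or c, where the rule asks for 2 pairs and not 3. These were chosen after seeing the data. With 1 pair left out, list medians that moved ran from -0.72 (without pair a) to 0.0066 (without pair c) for immediate early genes, -0.0949 to 0.156 for oxidative stress genes, -0.0545 to 0.0268 for clock genes, 0.236 to 0.44 for resting microglia and -0.0211 to 0.255 for choroid plexus. After normexp and loess the medians of glutamate and GABA receptors (0.0496) and clock genes (-0.0807) moved, and 225 other values of list medians moved by less than the spread of the pairs. The median of 16 of 29 lists turned sign with 1 pair left out, among them cytokines (0.142 without pair c), complement (-0.0485 without pair a) and NF-kB feedback genes (-0.0472 without pair a). The interaction with P5 called 0 genes without the replicate block, 0 after scale normalization and 0 to 16 without 1 pair. Scaling the HI channel to its median called 66 genes in place of 0. Dim probes limit the higher group most, since 12 of its 107 genes had a naive signal not well above background on all arrays of a time.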

Other observations

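Small nucleolar RNA host genes, noncoding RNAs whose introns carry guide RNAs for ribosomal RNA, were not in the lists and were looked at after Snhg1 ranked among the lowest genes. Of 11 tested, 7 had a negative difference in all 3 pairs, 3 were over 1.5-fold lower in all 3 pairs (2.24% of all genes were), and the median was -0.44. Snhg1 was at 0.58, 0.56 and 0.70 at 12 h and at -0.38, -0.48 and -0.22 at 24 h, and the 2 times did not overlap. Snhg16 went from 0.61 to -0.20 with -0.95, -0.74 and -0.72 by pair, and Snhg12 from 0.68 to 0.24. Snhg15, at -2.20, -0.72 and -0.64, has the profile of Rn4.5s (r = 0.92), and Snhg18 went the other way (0.26). None passed the test (adjusted p = 0.0762 for Snhg1 and Snhg16).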
